A study of Mus musculus with 12 samples.

Results

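The fibroblast growth factor (FGF), insulin-like growth factor (IGF), platelet-derived growth factor (PDGF) and vascular endothelial growth factor (VEGF) systems were followed in mouse brain cortex and interparietal bone after a local ischemic injury. The members were taken by a fixed pattern of gene symbols for ligands, receptors and IGF binding proteins of these systems, which matched 44 of the 22317 genes in the count table. The pattern does not take in every gene of these systems: the FGF binding protein genes Fgfbp1 and Fgfbp3, for example, are outside it. The FGF system had 21 members, the IGF system 9, the PDGF system 7 and the VEGF system 7. Of the FGF members, 12 were secreted ligands, 4 were intracellular FGF homologous factors (Fgf11 to Fgf14), 4 were receptors and 1 was the receptor-like Fgfrl1.

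All libraries came from male wild-type BALB/c mice injured by photothrombosis, in which a laser lit through the tissue activates the circulating dye Rose Bengal and clots the vessels in its path. By their labels, the SB2 and SB4 libraries were brain cortex taken 2 and 4 days after the injury was placed in the skull. Those labelled BS2 and BS6 were given as interparietal bone taken 2 and 6 days after the injury was placed in the brain, but the markers described below go against the tissue label of SB2 and BS2. Each of the 4 groups had 3 libraries, and in all 12 the tissue sampled was labelled as lying next to the injured one. Uninjured control mice and the injured tissues themselves were not analysed here. Each tissue piece held many cell types, so fewer cells of a type and less RNA per cell cannot be told apart.

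The secreted ligands act through receptor tyrosine kinases on the cell surface. Secreted FGFs bind FGF receptors together with heparan sulfate and drive bone growth, angiogenesis and glial signalling, whereas the FGF homologous factors stay inside the cell and bind voltage-gated sodium channels. Igf1 is a main growth factor of bone matrix, and the IGF binding proteins hold it and set how much reaches its receptor. PDGFs recruit pericytes and mesenchymal cells, and VEGFs steer the growth of blood and lymphatic vessels.

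The tissue labels did not match the marker genes in 2 of the 4 groups, which decides how every comparison over time reads. The libraries labelled SB2, a cortex group, held 36850 to 41969 CPM (counts scaled to a common library size) of 7 summed osteoblast and osteocyte markers and 74.3 to 90.7 CPM of 8 summed neuron markers. The libraries labelled BS2, a bone group, held 24.2 to 34.5 CPM of the osteoblast markers and 8753 to 8979 CPM of the neuron markers. SB4 (23.1 to 25.9 CPM osteoblast, 9029 to 9448 CPM neuron) and BS6 (19217 to 79444 CPM osteoblast, 88.9 to 180.0 CPM neuron) matched their labels. The osteoblast marker Ibsp was at or under the floor of 3 counts per library in SB4 and BS2, while each of the 8 neuron markers was above it in every group. Day and tissue content therefore cannot be told apart in SB4 against SB2 or in BS6 against BS2. Whether the labels of SB2 and BS2 were exchanged was not tested. BS6 replicate 2 stood apart from the other BS6 libraries, with the lowest osteoblast (19217 CPM) and fibroblast (4252 CPM) sums and a neutrophil sum of 23433 CPM against 1347 and 3237 CPM. Library totals ran from 14126082 to 18972654 counts, and 3 counts corresponded to 0.163 to 0.218 CPM.

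The sequences just upstream of 5 members are shown because these genes divide in their behaviour: Igfbp4, Igfbp5, Fgf7 and Kdr followed the bone transcripts, and Igfbp2, which lies 5457 bases from Igfbp5 on the same chromosome in the opposite orientation, stayed near its level in most groups. Each run is the RefSeq sequence (GRCm38.p6) that ends at the annotated start, read 5′ to 3′ on the strand of the gene, and bases inside an annotated exon were trimmed off. Capitals mark matches on either strand to a GC box (GGGCGG), the hypoxia response core (ACGTG) or a TATA box (TATAAA). The windows were chr11:99040994-99041243 (plus strand), chr1:72874885-72875115 (minus), chr1:72824230-72824479 (plus), chr2:126034408-126034657 (plus) and chr5:75978459-75978705 (minus).
Igfbp4: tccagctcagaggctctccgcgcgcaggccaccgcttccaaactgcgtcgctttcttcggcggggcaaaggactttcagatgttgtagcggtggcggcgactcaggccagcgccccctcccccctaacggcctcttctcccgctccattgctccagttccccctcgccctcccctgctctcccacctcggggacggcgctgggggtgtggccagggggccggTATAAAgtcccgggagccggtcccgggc
Igfbp5: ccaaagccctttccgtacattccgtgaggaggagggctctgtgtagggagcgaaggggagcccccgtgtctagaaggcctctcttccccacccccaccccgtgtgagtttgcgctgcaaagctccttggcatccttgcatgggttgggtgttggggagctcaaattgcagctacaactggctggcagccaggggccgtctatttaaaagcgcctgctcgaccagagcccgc
Igfbp2: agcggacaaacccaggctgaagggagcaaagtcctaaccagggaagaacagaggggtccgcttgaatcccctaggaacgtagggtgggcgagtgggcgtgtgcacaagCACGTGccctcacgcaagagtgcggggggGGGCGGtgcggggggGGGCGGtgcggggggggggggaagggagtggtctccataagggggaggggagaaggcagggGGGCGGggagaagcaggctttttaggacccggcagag
Fgf7: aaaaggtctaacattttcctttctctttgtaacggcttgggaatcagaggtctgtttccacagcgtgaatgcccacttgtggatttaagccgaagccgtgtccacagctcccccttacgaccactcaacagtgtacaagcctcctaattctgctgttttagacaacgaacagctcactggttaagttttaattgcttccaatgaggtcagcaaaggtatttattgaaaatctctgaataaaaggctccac
Kdr: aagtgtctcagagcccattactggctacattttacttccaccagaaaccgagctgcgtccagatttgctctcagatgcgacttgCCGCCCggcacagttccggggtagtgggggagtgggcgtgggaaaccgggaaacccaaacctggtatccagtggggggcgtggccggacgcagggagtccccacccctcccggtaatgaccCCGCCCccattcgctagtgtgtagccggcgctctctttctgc
Igfbp2 had 3 GC boxes and 2 matches to the hypoxia core, both from the single palindrome CACGTG, Kdr had 2 GC boxes, and Igfbp4 had 1 TATA box. No such letters were in the windows of Igfbp5 and Fgf7. The window of Igf2r, which followed the bone transcripts too and is not printed here, had 3 GC boxes and 4 matches to the hypoxia core. The hypoxia core thus did not divide with the behaviour of the genes. Over the 49 RefSeq windows of 250 bases found for 38 of the 44 members, 61.2% held a GC box, 16.3% the hypoxia core and 10.2% the TATA box, against 32.7%, 16.6% and 12.4% of all 32851 windows. The median GC content of the member windows was 64%, against 52.4% of all windows. For 33 of the 49 windows the bases after the RefSeq start lay in a GENCODE transcript of the gene. For Igfbp2 and Igf2r they did not, so the starts of both are uncertain.

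SB4 against SB2 asked how the cortex label changed between day 2 and day 4 after skull injury. Most called members were lower in SB4, and those called higher were all FGF genes. Of 40 members tested, 22 were called lower and 8 higher (a log2 fold change beyond 1 in size at an adjusted p below 0.05 in edgeR's quasi-likelihood test), against 28.6% of all genes called lower and 27.8% called higher. The 8 members called higher were the secreted ligands Fgf1, Fgf5, Fgf9, Fgf10 and Fgf22 and the homologous factors Fgf12, Fgf13 and Fgf14. The IGF system had 6 of 9 members called lower and none higher, the PDGF system 7 of 7 and the VEGF system 4 of 7. The median log2 fold change of the tested members was -1.51, beside -0.015 over all genes.

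BS6 against BS2 asked how the bone label changed between day 2 and day 6 after brain injury, and the pattern ran the other way. Of 40 members tested, 23 were called higher and 8 lower, against 29% and 26.5% of all genes, and 22 were higher and 8 lower without BS6 replicate 2. The median log2 fold change of the members was 1.48, beside 0.02 over all genes. Here 29 members were called in both comparisons over time, and all 29 had opposite signs in both: 21 were lower in SB4 and higher in BS6, and 8 were higher in SB4 and lower in BS6. Opposite signs were general to the table, since 99.8% of all genes called in both had them, so this is no result about the members. Of all genes tested in both, 49.3% were called in both. Another 8 members were called in neither, Pdgfa was called in SB4 against SB2 alone, and Fgfrl1 and Igfbp2 in BS6 against BS2 alone. Fgf3, Fgf17, Fgf21 and Fgf23 had too few counts to be tested, with no group mean above 0.602 CPM.

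**Figure D1:**
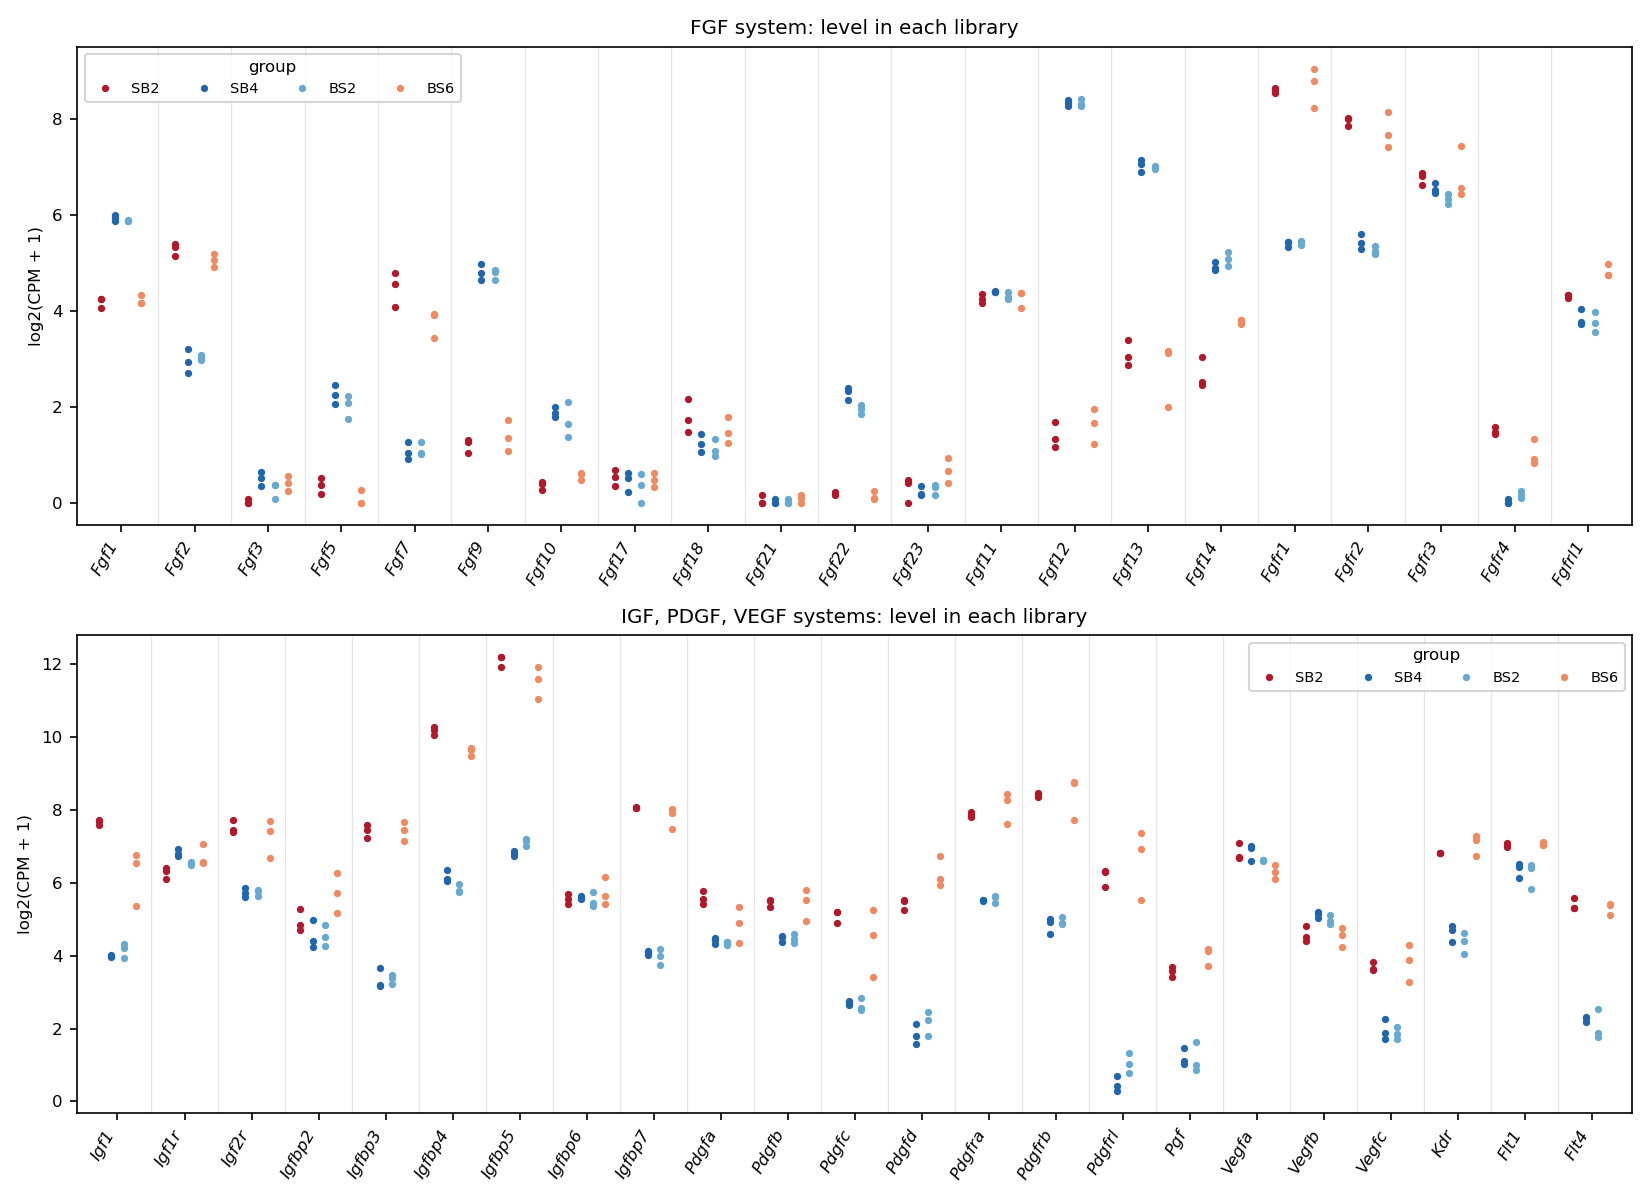
Level of each of the 44 members in each of the 12 libraries, as log2(CPM + 1), with 1 point per library coloured by group and genes ordered by system and role. The SB2 and BS6 points sit close together and apart from the SB4 and BS2 points for most members, as for Fgf12 (1.25 to 2.90 CPM against 309 to 343 CPM), while Igfbp6 and Fgf11 lie at similar levels in all groups.

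**Figure D2:**
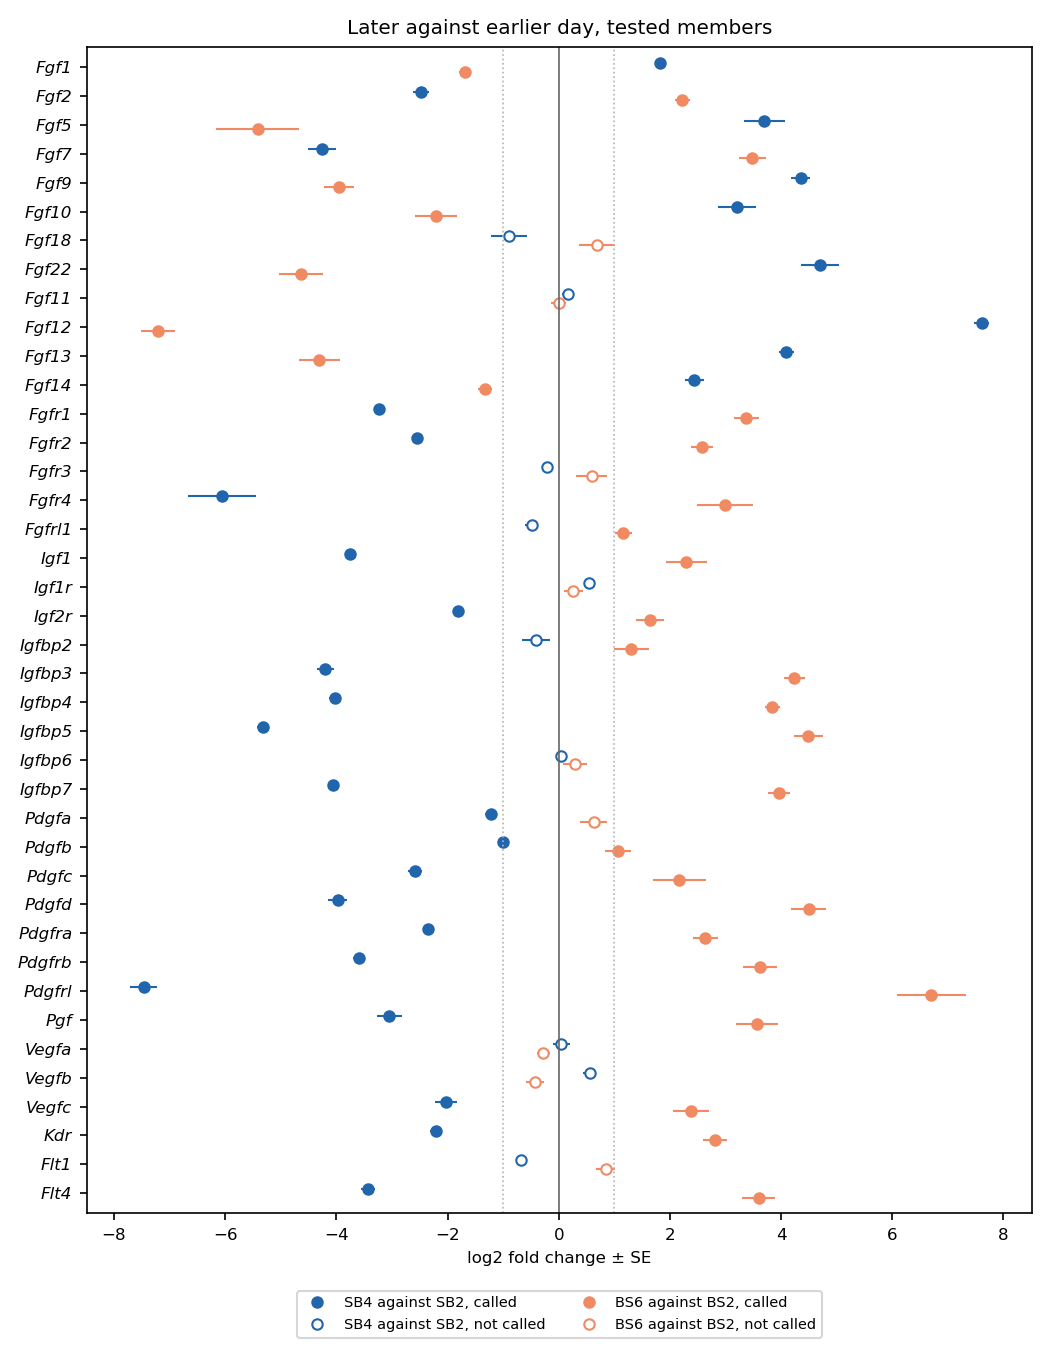
Log2 fold change ± SE of each tested member in SB4 against SB2 and in BS6 against BS2. The 29 members called in both comparisons lie on opposite sides of 0, with Fgf12 at 7.61 and -7.20 and Pdgfrl at -7.47 and 6.70.

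The largest change in the FGF system was that of Fgf12, a homologous factor that binds sodium channels. It was at 1.25, 1.53 and 2.2 CPM in SB2, at 309, 337 and 324 CPM in SB4, at 319.8, 311 and 343 CPM in BS2 and at 2.15, 2.90 and 1.34 CPM in BS6. The SB4 and BS2 libraries lay above every SB2 and BS6 library, and the log2 fold change was 7.61 ± 0.13 (SE, adjusted p = 1.68e-12) in SB4 against SB2 and -7.20 ± 0.30 (adjusted p = 6.98e-06) in BS6 against BS2. Fgf13, which also binds microtubules in neurons, was at 7.29, 9.52 and 6.35 CPM in SB2, 118, 134 and 141 CPM in SB4, 123, 129.7 and 127 CPM in BS2, and 7.76, 3.02 and 8.02 CPM in BS6. Its log2 fold changes were 4.09 ± 0.13 (adjusted p = 4.47e-10) and -4.30 ± 0.37 (adjusted p = 8.31e-05), and BS6 replicate 2 was its lowest library. Fgf14, linked to spinocerebellar ataxia in people, moved less. It was at 4.50, 7.26 and 4.70 CPM in SB2, 28.1, 28.8 and 31.7 CPM in SB4, 36.5, 29.6 and 32.9 CPM in BS2 and 13.0, 12.2 and 13.0 CPM in BS6, with log2 fold changes of 2.44 ± 0.16 (adjusted p = 7.67e-08) and -1.33 ± 0.12 (adjusted p = 0.000114). The lowest level was thus in SB2, and the BS6 libraries lay between SB2 and the brain-transcript groups without overlap. Fgf11, the remaining homologous factor, did not pass in either comparison (log2 fold changes of 0.16 ± 0.10 and 0.00 ± 0.14), with group means of 18.1 to 20.2 CPM.

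These differences changed the make-up of the homologous factors. Set on a scale of CPM per kilobase of exon, so that genes of different length can be compared, the 4 genes summed to 98.3 ± 5.19 (SD, n = 3) in SB4 and 98.0 ± 3.13 in BS2 but to 9.46 ± 0.815 in SB2 and 11 ± 1.48 in BS6. Fgf12 made up 53.0% ± 1.41 of that sum in SB4 and 53.4% ± 1.03 in BS2. Fgf11 took its place in SB2, at 63.2% ± 5.15, and in BS6, at 55.0% ± 0.452. Against the summed neuron markers of the same library, a ratio chosen after the values had been seen, Fgf12 stood at 3.48% ± 0.0746 in SB4 and 1.96% ± 0.539 in SB2. Fgf13 and Fgf14 went the other way: Fgf13 was 1.41% ± 0.103 of the neuron sum in SB4 and 9.31% ± 3.08 in SB2, and Fgf14 was 0.319% ± 0.0191 in SB4, 6.66% ± 2.71 in SB2 and 12% ± 4.53 in BS6. Fgf13 in BS6 was at 8.68%, 1.68% and 9.02%, with replicate 2 close to the 1.43% ± 0.0240 of BS2. In BS6 replicate 2 the neuron sum was also higher, at 180 CPM against 89.4 and 88.9 CPM, while Fgf13 itself was at 3.02 CPM. Fgf14 was higher against the neuron sum in each SB2 and BS6 library than in any SB4 or BS2 library.

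Of the 8 secreted FGFs tested, 5 ran with the brain transcripts (the brain set) and 2 with the bone transcripts (the bone set). Fgf18 was called in neither comparison, and Fgf3, Fgf17, Fgf21 and Fgf23 were not tested. Fgf1, an acidic FGF that binds all FGF receptors, was at 18.1, 17.9 and 15.8 CPM in SB2, 60.5, 58.1 and 63.5 CPM in SB4, 58.3, 58.0 and 58.6 CPM in BS2 and 17.0, 19.2 and 16.9 CPM in BS6. Its log2 fold change was 1.82 ± 0.09 (adjusted p = 3.74e-09) in SB4 against SB2 and -1.68 ± 0.11 (adjusted p = 2.3e-05) in BS6 against BS2. Arhgap26, which overlaps Fgf1 on the opposite strand, moved the same way (209 CPM in SB4, 20.2 CPM in SB2), and whether its reads reached Fgf1 was not tested because the strand setting of the counting was not stated. Fgf9, a glia-activating factor also made by neurons, was at 1.42, 1.07 and 1.47 CPM in SB2 and at 24.0, 30.6 and 26.7 CPM in SB4, with 27.2, 24.1 and 27.9 CPM in BS2 and 1.11, 1.57 and 2.29 CPM in BS6. Its log2 fold changes were 4.35 ± 0.17 (adjusted p = 5.16e-10) and -3.95 ± 0.26 (adjusted p = 2.87e-05). Of the sparser ligands, Fgf10 changed by 3.21 ± 0.33 and -2.21 ± 0.38. Fgf22, which organises synapses, was called in both comparisons, at 3.40 to 4.26 CPM in SB4 and 2.63 to 3.12 CPM in BS2 but 1 to 3 counts per library in SB2 and BS6. Fgf5 was called in both too, at 3.15 to 4.47 CPM in SB4 and 2.37 to 3.70 CPM in BS2 against 0.133 to 0.427 CPM in SB2 and 0 to 3 counts per library in BS6. No fold is given for such counts.

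Fgf7 (keratinocyte growth factor, a mesenchymal ligand for epithelial cells) had the largest fold changes of the bone set, while Fgf2 had the higher CPM. Fgf7 was at 26.8, 15.9 and 22.8 CPM in SB2, 1.06, 1.41 and 0.891 CPM in SB4, 1.06, 1.41 and 1.02 CPM in BS2 and 14.1, 9.91 and 14.3 CPM in BS6, a log2 fold change of -4.26 ± 0.25 (adjusted p = 4.1e-08) and 3.48 ± 0.25 (adjusted p = 3.59e-05). Fgf2, a basic FGF stored in matrix, changed by -2.47 ± 0.14 and 2.22 ± 0.13, whereas Nudt6, which overlaps it, did not pass in either comparison (0.09 and -0.16). Fgf18, needed for skull suture ossification, reached adjusted p = 0.0232 in SB4 against SB2 (-0.89 ± 0.32, below the fold threshold) and adjusted p = 0.0972 in BS6 against BS2. It was called lower in SB4 without SB2 replicate 3 (-1.09) or without SB4 replicate 1 (-1.04). Per kilobase, the secreted FGFs summed to 18.6 ± 2.75 in SB2, 23.8 ± 0.280 in SB4, 22.2 ± 1.40 in BS2 and 14.9 ± 0.988 in BS6, and their make-up differed. Fgf7 and Fgf2 held 35.8% and 30.6% of the sum in SB2 and 26.4% and 32.3% in BS6. Fgf1 and Fgf9 held 46.7% and 24.5% in SB4 and 48.2% and 25.6% in BS2.

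Among the FGF receptors, Fgfr1, the main mesenchymal receptor, was at 375, 403 and 388 CPM in SB2, 42.2, 39.3 and 42.2 CPM in SB4, 40.8, 43.0 and 42.3 CPM in BS2 and 447, 298 and 531 CPM in BS6. The changes were -3.23 ± 0.07 (adjusted p = 7.43e-12) and 3.37 ± 0.22 (adjusted p = 2.92e-05), and BS6 replicate 2 was the lowest BS6 library. Fgfr2 moved alike (-2.54 ± 0.09 and 2.58 ± 0.20), although its annotated span also covers other genes. Fgfr4 was called lower in SB4 and higher in BS6, at 1.71 to 2.00 CPM in SB2 and 0.785 to 1.5 CPM in BS6 against 0 to 1 counts per library in SB4 and 1 to 3 in BS2. Fgfr3, the receptor of astrocytes and growth plate chondrocytes, stayed between 74.6 and 174 CPM in all 12 libraries and was not called in either comparison (-0.22 ± 0.08, adjusted p = 0.029, and 0.59 ± 0.27, adjusted p = 0.0894). As the others moved around it, Fgfr3 made up 61.0% ± 2.02 of the receptor sum per kilobase in SB4 and 58.5% ± 1.82 in BS2, against 19.2% ± 1.54 in SB2 and 19.9% ± 2.79 in BS6, where Fgfr1 led with 49.7% ± 0.273 and 53.1% ± 6.00. Fgfrl1, which binds FGFs but lacks a kinase, changed by -0.49 ± 0.12 and 1.16 ± 0.16.

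**Figure D3:**
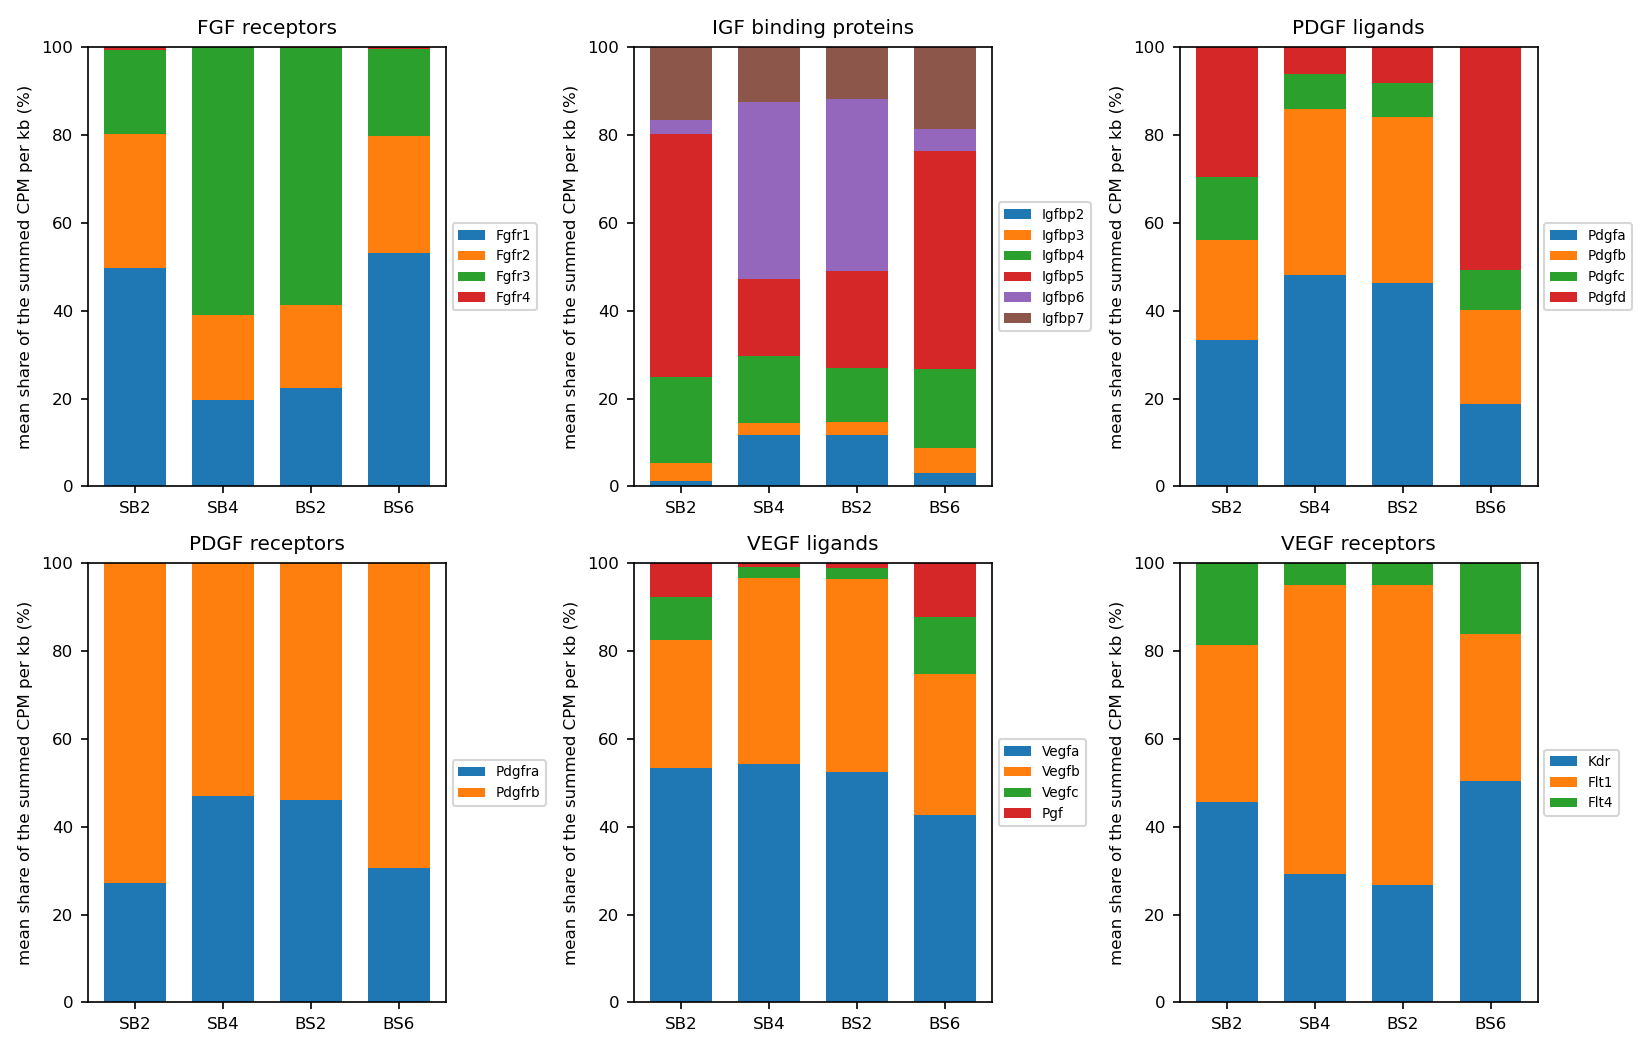
Mean share of each member in the summed CPM per kilobase of its family, in percent, as stacked bars for the 4 groups (n = 3 libraries each). Fgfr3 was 61.0% and 58.5% of the FGF receptors in SB4 and BS2 but 19.2% and 19.9% in SB2 and BS6, while Pdgfd was 29.5% of the PDGF ligands in SB2 and 50.7% in BS6.

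In the IGF system, Igf1 was at 193, 212 and 208 CPM in SB2, 15, 14.7 and 15.3 CPM in SB4, 17.4, 14.3 and 19 CPM in BS2 and 93.3, 40.4 and 109 CPM in BS6. It changed by -3.76 ± 0.07 (adjusted p = 2.66e-12) and 2.29 ± 0.37 (adjusted p = 0.00146). Every BS6 library lay below every SB2 library, and BS6 replicate 2 was the lowest of them. Igf1r, the signalling receptor, was not called in either comparison (0.54 ± 0.08, adjusted p = 0.000112, and 0.26 ± 0.17, adjusted p = 0.197), with group means of 77.3 to 112 CPM. Igf2r, which clears IGF2 and carries lysosomal enzymes, was at 168, 174 and 212 CPM in SB2, 48.2, 52.3 and 57.0 CPM in SB4, 54.0, 48.5 and 54.8 CPM in BS2 and 208, 103 and 170.4 CPM in BS6. The fold changes of Igf2r were -1.81 ± 0.10 (adjusted p = 2.23e-08) and 1.65 ± 0.25 (adjusted p = 0.00118), with no overlap between the groups in either. Airn, the imprinted RNA on the opposite strand of Igf2r, was at 16.7 CPM in SB2, 0.842 CPM in SB4, 1.13 CPM in BS2 and 16.4 CPM in BS6, and its share in the Igf2r counts was not tested.

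The IGF binding proteins split into 4 that followed the bone transcripts and a pair that did not. Igfbp5, the binding protein most abundant in bone matrix, was the highest member in SB2 and BS6, at 3915, 4705 and 4665 CPM in SB2, 110.2, 117 and 106 CPM in SB4, 127, 146 and 141 CPM in BS2 and 3078, 2125 and 3858 CPM in BS6. It changed by -5.32 ± 0.11 (adjusted p = 5.08e-12) and 4.48 ± 0.26 (adjusted p = 1.79e-05). Igfbp4, an inhibitor of IGF action that the protease Pappa cleaves, was at 1063, 1172 and 1237 CPM in SB2, 67.5, 80.0 and 65.1 CPM in SB4, 52.4, 62.0 and 53.5 CPM in BS2 and 804, 708 and 837 CPM in BS6. Its changes were -4.02 ± 0.11 (adjusted p = 2.37e-11) and 3.84 ± 0.14 (adjusted p = 4.41e-06). In both genes the SB2 libraries lay above every BS6 library, and the brain-transcript groups lay far below. Igfbp3, the main IGF carrier of serum, was at 150.5, 173 and 190.2 CPM in SB2, 8.02, 8.10 and 11.6 CPM in SB4, 9.44, 10.1 and 8.35 CPM in BS2 and 172, 201 and 141 CPM in BS6. This gave -4.20 ± 0.15 (adjusted p = 1.11e-08) and 4.24 ± 0.18 (adjusted p = 7e-06). Igfbp7, a vessel and matrix protein, was at 264, 266 and 269 CPM in SB2, 16.3, 16.5 and 15.3 CPM in SB4, 12.5, 17.1 and 15 CPM in BS2 and 259, 178 and 239 CPM in BS6, or -4.05 ± 0.07 (adjusted p = 1.48e-12) and 3.96 ± 0.20 (adjusted p = 1.08e-05).

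Igfbp2 and Igfbp6 behaved differently. Igfbp2, whose start is shown above beside that of Igfbp5, was at 38.3, 25.0 and 27.7 CPM in SB2, 20.2, 17.8 and 30.6 CPM in SB4, 18.4, 27.8 and 21.9 CPM in BS2 and 35.3, 76.5 and 51.8 CPM in BS6. SB4 against SB2 did not pass (-0.40 ± 0.25, adjusted p = 0.182), while BS6 against BS2 was called (1.31 ± 0.31, adjusted p = 0.00814). That call rests on BS6 replicate 2, the highest library, without which the log2 fold change was 0.98 (adjusted p = 0.00408) and under the fold threshold. Igfbp6, which prefers IGF2, did not pass in either comparison (0.04 ± 0.09 and 0.29 ± 0.22). Per kilobase the binding proteins summed to 1333 ± 93.0 in SB2 and 999 ± 159 in BS6 but to 106 ± 3.49 in SB4 and 104 ± 12.6 in BS2. Igfbp5 led in SB2 (55.2% ± 1.86) and BS6 (49.6% ± 6.74), and Igfbp6 led in SB4 (40.3% ± 0.816) and BS2 (39.1% ± 2.32).

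The PDGF system had all 7 members called lower in SB4 against SB2 and 6 called higher in BS6 against BS2. Pdgfd, the ligand that forms a homodimer for the beta receptor, was at 36.9, 44.2 and 45.5 CPM in SB2, 1.99, 2.50 and 3.40 CPM in SB4, 2.48, 4.48 and 3.70 CPM in BS2 and 60.7, 67.8 and 105 CPM in BS6. The changes of Pdgfd were -3.98 ± 0.17 (adjusted p = 1.08e-09) and 4.49 ± 0.32 (adjusted p = 4.08e-05), and its BS6 libraries lay above all SB2 libraries. Pdgfc changed by -2.59 ± 0.12 and 2.17 ± 0.48, with 9.72 CPM in BS6 replicate 2 against 36.9 and 22.9 CPM in the other BS6 libraries. Pdgfa fell by 1.22 ± 0.11 on the log2 scale in SB4 and was not called in BS6 against BS2 (0.63 ± 0.25, adjusted p = 0.0557). The RNA 6330403L08Rik, opposite Pdgfa, was at 15.4 CPM in SB2 and 28.7 CPM in SB4. Pdgfb, the endothelial ligand that attracts pericytes, stood at the threshold (-1.01 ± 0.09 and 1.07 ± 0.23). Its call was lost without SB2 replicate 1, SB2 replicate 2 or SB4 replicate 2 (-0.99, -0.98 and -0.93) and without BS2 replicate 1 or BS6 replicate 1 (0.99 and 0.87).

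Pdgfrb, the receptor of pericytes and fibroblasts, was at 327, 353 and 347 CPM in SB2, 23.3, 31.4 and 29.7 CPM in SB4, 28.3, 28.8 and 32.7 CPM in BS2 and 439, 212 and 424 CPM in BS6. It changed by -3.60 ± 0.10 (adjusted p = 4.86e-11) and 3.62 ± 0.30 (adjusted p = 8.02e-05). Pdgfra, the receptor of fibroblasts and oligodendrocyte precursors, changed by -2.36 ± 0.07 and 2.64 ± 0.22, from 233 ± 11.5 CPM in SB2 to 45.3 ± 0.488 CPM in SB4. Per kilobase, Pdgfrb held 72.9% ± 1.27 of the receptor pair in SB2 and 53.0% ± 3.66 in SB4, but with the longest transcript as the length it held 43.8% ± 3.59 in SB4, so the order of the pair there depends on the length used. Pdgfrl, a receptor-like protein without a kinase, had the largest fold changes after Fgf12. It was at 57.7, 78.1 and 79.2 CPM in SB2, 0.355, 0.217 and 0.613 CPM in SB4, 0.708, 1.02 and 1.53 CPM in BS2 and 163, 45.5 and 121 CPM in BS6. Its changes were -7.47 ± 0.25 (adjusted p = 1.23e-09) and 6.70 ± 0.62 (adjusted p = 0.000116). Against the summed mural cell markers, Pdgfrb was 31.5% ± 1.56 in SB2 and 33.0% ± 7.72 in BS6 but 15.3% ± 2.97 in SB4 and 16.7% ± 2.17 in BS2, a ratio to the sum of 5 markers. The single markers changed by between -6.82 (Acta2) and -1.10 (Rgs5) in SB4 against SB2, so Pdgfrb at -3.60 lay within their range.

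The VEGF system divided between its ligands. Vegfa, the main hypoxia-induced angiogenic factor, was at 136, 103 and 101 CPM in SB2, 129, 96.4 and 124 CPM in SB4, 98.4, 98.0 and 95.4 CPM in BS2 and 67.6, 77.5 and 89.2 CPM in BS6. It did not pass in SB4 against SB2 (0.04 ± 0.15, adjusted p = 0.805) or in BS6 against BS2 (-0.28 ± 0.12, adjusted p = 0.0675), although all 3 BS6 libraries lay below the BS2 libraries. Vegfb, a ligand of Flt1, passed on adjusted p but not on fold (0.56 ± 0.11, adjusted p = 0.000754, and -0.43 ± 0.16, adjusted p = 0.0467). The lymphatic ligand Vegfc (-2.02 ± 0.20 and 2.38 ± 0.32) and Pgf, the placental growth factor (-3.05 ± 0.23 and 3.57 ± 0.38), followed the bone transcripts. Vegfa was the leading ligand per kilobase in every group, at 53.3% ± 5.63 in SB2, 54.3% ± 5.16 in SB4, 52.5% ± 2.26 in BS2 and 42.6% ± 5.74 in BS6.

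Kdr, the signalling receptor for Vegfa, was at 112, 112 and 111 CPM in SB2, 25.0, 20.0 and 27.3 CPM in SB4, 15.4, 20.3 and 23.6 CPM in BS2 and 157, 105 and 143 CPM in BS6, a change of -2.21 ± 0.11 (adjusted p = 3.64e-09) and 2.81 ± 0.22 (adjusted p = 5.51e-05). Flt4, the receptor for Vegfc on lymphatic and sinusoidal endothelium, was at 38.7, 47.4 and 38.7 CPM in SB2, 3.55, 3.91 and 4.01 CPM in SB4, 2.71, 4.80 and 2.40 CPM in BS2 and 33.6, 42.2 and 41.2 CPM in BS6, or -3.43 ± 0.12 (adjusted p = 3.2e-10) and 3.59 ± 0.29 (adjusted p = 6.26e-05). Neither receptor overlapped between the groups compared. Flt1, the decoy receptor that binds Vegfa tightly, passed on adjusted p but stayed under the fold threshold (-0.68 ± 0.09, adjusted p = 3.75e-05, and 0.84 ± 0.18, adjusted p = 0.00433). The receptor make-up per kilobase changed with it: Flt1 was 65.7% ± 4.35 of the sum in SB4 and 68.4% ± 1.09 in BS2 but 35.8% ± 0.527 in SB2 and 33.5% ± 2.74 in BS6, where Kdr was at 45.6% ± 1.63 and 50.3% ± 5.86. With the longest transcript as the length, Flt1 (42.7% ± 0.576) and Kdr (42.4% ± 1.46) were level in SB2.

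The sum of 6 endothelial markers ran from 629 to 680 CPM in SB2 and 602 to 796 CPM in BS6 to 79.7 to 99.0 CPM in SB4 and 63.3 to 95.7 CPM in BS2. Set against that sum, Flt1 was 20.0% ± 0.141 in SB2 and 19.6% ± 2.75 in BS6 but 88.0% ± 3.36 in SB4 and 92.9% ± 8.80 in BS2, with no overlap. Kdr was 17.0% ± 0.633 in SB2, 26.5% ± 5.76 in SB4, 24.3% ± 3.09 in BS2 and 19.5% ± 2.01 in BS6. Flt4 was 6.33% ± 0.573, 4.16% ± 0.260, 4.03% ± 1.14 and 5.80% ± 1.42 in the same order. The ratios rest on the makeup of the sum, which Pecam1, Cdh5, Tie1 and Emcn carry in SB2 and BS6. Of the 6 markers, Cldn5, the tight junction protein of brain endothelium, did not follow them, at 18.5 CPM in SB2, 23.8 CPM in SB4, 19 CPM in BS2 and 28.2 CPM in BS6 (0.37, adjusted p = 0.0474, and 0.61, adjusted p = 0.0501). Esam moved less than the other 4 (-1.50 ± 0.09 and 1.85 ± 0.13). The part that endothelial content plays in the receptor levels was not tested.

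**Figure D4:**
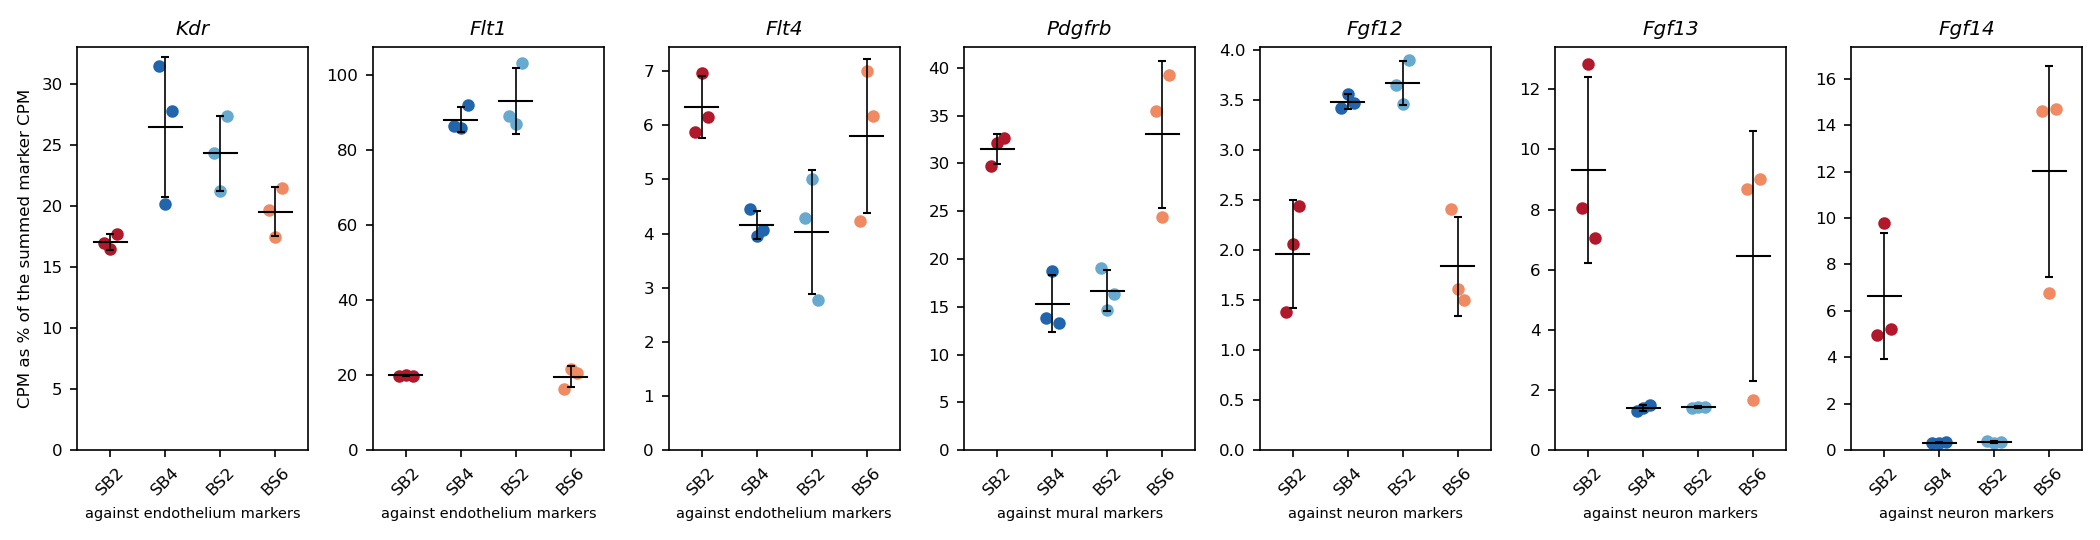
CPM of 7 members as a percent of the summed CPM of a marker list in the same library, with 1 point per library, the mean as a bar and the SD as an error bar (n = 3 per group). Flt1 stands at 88.0% and 92.9% of the endothelial sum in SB4 and BS2 against 20.0% and 19.6% in SB2 and BS6, and Fgf14 is higher against the neuron sum in SB2 and BS6.

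The difference between both changes over time, (BS6 - BS2) - (SB4 - SB2), was called for 34 of 40 members, 26 higher and 8 lower, against 73.6% of all genes. Vegfb was not called, but was (as far as -1.15) when any one of BS2 replicate 1 or 3, BS6 replicate 1 or 3, SB2 replicate 2 or SB4 replicate 3 was left out, and Fgfr3 was called (1.01) without BS6 replicate 2. Since SB2 holds bone transcripts and BS2 holds brain transcripts, this contrast carries the tissue content of both changes, and day cannot be told apart from it.

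BS6 against SB4, a comparison added after the data had been seen, set the groups whose labels matched their markers side by side. Of 40 members tested, 23 were called higher in BS6 and 8 lower, against 28.8% and 26.5% of all genes, and 22 and 8 without BS6 replicate 2. Bone at day 6 after brain injury had more Pdgfrl (8.12 ± 0.69), Pdgfd (4.92 ± 0.31), Igfbp5 (4.81 ± 0.26), Igfbp3 (4.25 ± 0.23) and Fgfr1 (3.40 ± 0.23) on the log2 scale than cortex at day 4 after skull injury. It had less Fgf12 (-7.20 ± 0.30), Fgf13 (-4.35 ± 0.37), Fgf9 (-3.99 ± 0.27) and Fgf1 (-1.74 ± 0.11). Fgfr3 (0.37 ± 0.27, adjusted p = 0.255), Igf1r (-0.03 ± 0.17, adjusted p = 0.894), Igfbp6 (0.22 ± 0.20, adjusted p = 0.346) and Fgf11 (-0.09 ± 0.13, adjusted p = 0.525) did not pass. Igfbp2 (1.29 ± 0.34) lost its call on fold without BS6 replicate 2 (0.96) and on adjusted p without SB4 replicate 1 (1.20, adjusted p = 0.0515) or SB4 replicate 2 (1.11, adjusted p = 0.0505). Calls were lost on fold for Pdgfb (1.07 ± 0.23) without BS6 replicate 1 or SB4 replicate 2 (0.86 and 0.99) and for Fgfrl1 (1.08 ± 0.15) without SB4 replicate 2 (0.98). This comparison uses the same BS6 and SB4 libraries as the changes over time, so it is no separate support for them.

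BS6 against SB2 compared the groups that share bone transcripts. Few genes of the whole table were called here, so the low count of members is no result about the members. Of 37 tested, only Fgf14 was called, against 1.86% of all genes, and 2 members passed on adjusted p alone, against 5.71% of all genes. At an unadjusted p under 0.05 there were 11 members, against 29.2% of all genes. Fgf14 was higher in BS6 (1.24 ± 0.22, adjusted p = 0.0377), and Fgfrl1 passed on adjusted p (0.56 ± 0.11, adjusted p = 0.0432). With a replicate block in edgeR's test neither passed (1.27, adjusted p = 0.105, and 0.56, adjusted p = 0.122), and 0 of all 16329 genes passed in that fit. Fgf14 overlaps the RNA Gm15422 on the same strand, at 3.67 CPM in BS6 and 1.16 CPM in SB2 (log2 fold change 1.68, adjusted p = 0.0435). On the opposite strand it overlaps Gm28932, at 1.90 and 0.859 CPM (adjusted p = 0.109). Their part in the Fgf14 counts was not tested. The Fgf14 call was lost in 5 of the 6 fits that left out 1 library (1.11 to 1.48 over all 6, adjusted p of 0.0751 to 0.182 in those 5). Without SB2 replicate 1, 2 or 3, 0 genes of the whole table were called. Without BS6 replicate 1, 17 genes were called higher and 17 lower, and without BS6 replicate 3, 15 and 17. The loss was thus general to the table and is no result about Fgf14.

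Igf1 had the largest difference in this comparison and did not pass edgeR's adjusted test over all 6 libraries (-1.32 ± 0.34, adjusted p = 0.0726), though DESeq2 called it (-1.32 ± 0.36, adjusted p = 0.00362), with 3 of 3 BS6 libraries below every SB2 library. BS6 replicate 2, with its low osteoblast and fibroblast sums, widened the spread. Without that library Igf1 was called lower in BS6 (-1.01 ± 0.10, adjusted p = 0.00139), Fgf14 stayed called (1.26 ± 0.23, adjusted p = 0.00856), and 9 of 37 members passed on adjusted p, against 20.3% of all genes, with 2 called against 4.02% of all genes. Among these 9, the PDGF receptors Pdgfra (0.49 ± 0.09) and Pdgfrb (0.34 ± 0.09), the receptor-like Pdgfrl (0.99 ± 0.18), the ligand Pdgfd (0.99 ± 0.25), Kdr (0.43 ± 0.08) and Fgfrl1 (0.60 ± 0.11) were higher in BS6, and Igfbp4 (-0.49 ± 0.11) was lower. Markers of other cells differed between BS6 and SB2 too. Summed erythroid markers were at 7609 to 12731 CPM in BS6 and 1295 to 4597 CPM in SB2. Skeletal muscle markers averaged 122 CPM in BS6 and 906 CPM in SB2, but the libraries overlapped (36.4 to 286 CPM in BS6, 167 to 1368 CPM in SB2). Endothelial markers averaged 688 CPM in BS6 and 656 CPM in SB2. Acta2 was lower in BS6 (-1.09 ± 0.15) and Myh11 higher (1.22 ± 0.17). Their part in the member differences was not tested. By the labels as given, day, injured tissue and sampled tissue all differ between BS6 and SB2 and cannot be told apart.

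SB4 against BS2 compared the groups that share brain transcripts. Calls were rare over all genes in this comparison, so the absence of called members is no result about the members. Of 39 tested, 0 were called in edgeR's quasi-likelihood test, against 0.147% of all genes. In that test 6 passed at an unadjusted p under 0.05, against 11.9% of all genes, and 2 passed on adjusted p alone, against 0.94% of all genes. DESeq2 called 0 members too, beside 24 genes higher and 17 lower of 16278. Igfbp5 was lower in SB4 (-0.33 ± 0.06, adjusted p = 0.00648) and Igf1r higher (0.27 ± 0.06, adjusted p = 0.0305), and the libraries of both groups did not overlap in either gene. The median absolute log2 fold change of the members was 0.09, beside 0.29 in BS6 against SB2, with no such median of all genes set beside them. Pdgfrl had the largest difference (-1.43 ± 0.47, adjusted p = 0.183), from 4 to 21 counts per library.

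**Figure D5:**
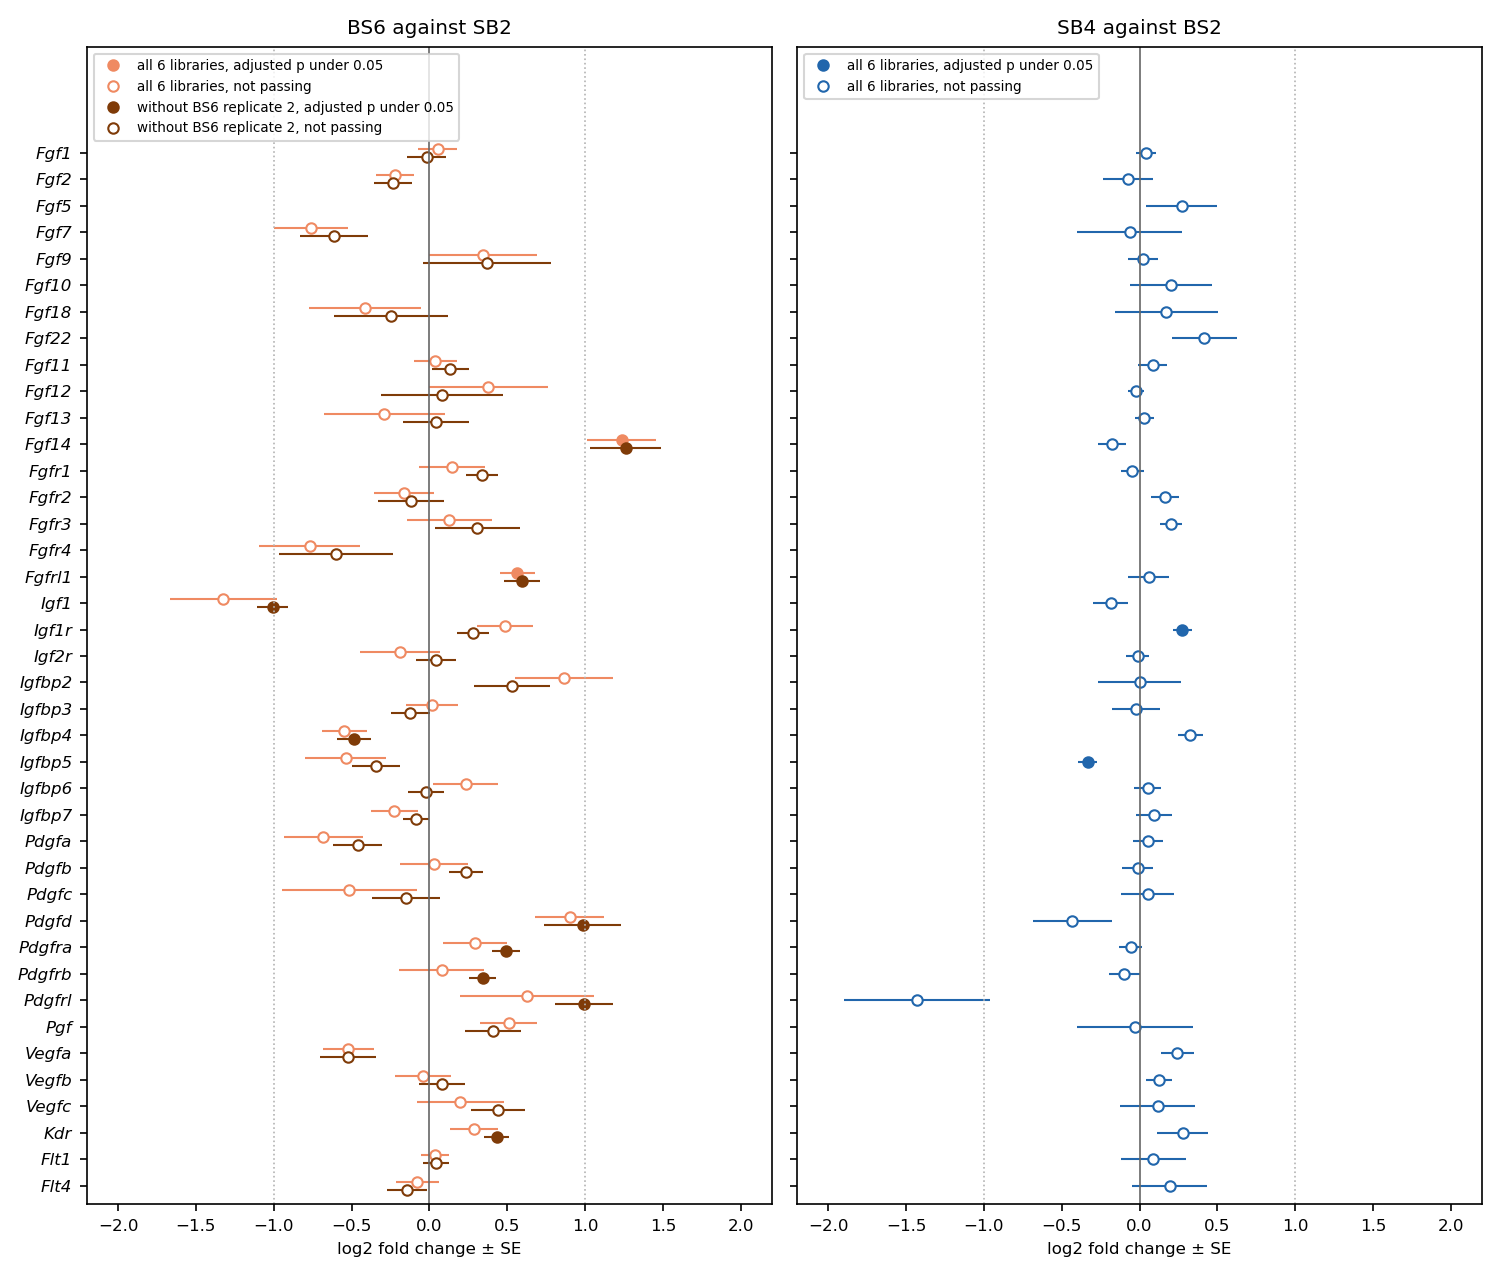
Log2 fold change ± SE of each tested member between groups that share bone transcripts (left) or brain transcripts (right). The left shows BS6 against SB2 with and without BS6 replicate 2, and the right SB4 against BS2. Points are filled where the adjusted p was under 0.05. Fgf14 (1.24) is the call on the left with all 6 libraries, Igf1 moves from -1.32 to -1.01 and gains a filled point without BS6 replicate 2, and nearly all points on the right lie close to 0.

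The other genes of the pathways were read by count, beside the shares of all genes given above (27.8% higher and 28.6% lower in SB4 against SB2, 29% and 26.5% in BS6 against BS2). Of 11 feedback regulators and targets of FGF signalling, 7 were called higher and 1 lower in SB4 against SB2 (median 1.21), and 1 higher and 7 lower in BS6 against BS2 (median -1.48). Spry2, an inhibitor of receptor signalling, changed by 2.47 ± 0.14 and -2.08 ± 0.13, and Etv5, an FGF-driven transcription factor, by 2.65 ± 0.10 and -2.80 ± 0.15, whereas Spry1 went against both (-1.35 ± 0.15 and 1.58 ± 0.19). Il17rd, a further inhibitor of the pathway, passed on adjusted p in the directions of Spry1 (-0.88 ± 0.17 and 0.70 ± 0.20), and Spry4 passed in neither comparison. Of the co-receptors and partners of FGF, 3 of 8 tested were called higher in SB4 and 2 of 8 lower in BS6, which at this list size is no result about the list. They included the adhesion protein Flrt3 (1.65 ± 0.10 and -2.03 ± 0.21).

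Of 10 IGF partners, 8 were called lower and 1 higher in SB4 against SB2 (median -2.41), and 7 of 9 were called higher in BS6 against BS2 (median 2.13). Pappa, the protease that frees IGF from Igfbp4, changed by -3.90 ± 0.46 and 3.95 ± 0.27, and Irs2, an adaptor of the IGF and insulin receptors, rose by 1.81 ± 0.08 in SB4. Of 10 VEGF partners and endothelial receptors, 9 were called lower in SB4 and 9 higher in BS6 (medians -3.17 and 3.06). They included Esm1, a VEGF-induced endothelial proteoglycan (-7.83 ± 0.62 and 7.08 ± 0.52). Esm1 had too few counts to be tested in SB4 against BS2, so both of its folds rest on few counts in those groups. Aplnr, the apelin receptor, was among them too (-6.26 ± 0.26 and 6.28 ± 1.03), while its ligand Apln was not called in either (0.46 ± 0.11 and -1.29 ± 0.70). Of the 17 shared adaptors and effectors, 4 were called higher and 1 lower in SB4 against SB2 and 3 higher and 4 lower in BS6 against BS2, none of these shares above that of all genes. Shc1, an adaptor of all these receptors, changed by -3.90 ± 0.09 and 3.98 ± 0.16. In BS6 against SB2 and in SB4 against BS2, 0 genes of these lists were called by edgeR's quasi-likelihood test.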

How the data were processed

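Polyadenylated RNA of 12 libraries (4 groups of 3, biological replicates per the study's methods) was sequenced in paired ends. The authors trimmed reads with fastp, aligned them with HISAT2 2.1.0 to mm10 and deposited raw counts per gene; the counter, its annotation, its strand setting and whether a batch correction was applied to this table are not given in the sources used here. All 22317 gene rows were used and 0 columns belonged to other samples. Nothing in the labels says more about how the replicates arose, so p-values measure the spread between these samples.

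Low genes were removed by filterByExpr (minimum count 10), and the libraries compared were fitted by the robust quasi-likelihood method of edgeR 4.0.16 (R 4.3.3) with TMM factors and Benjamini-Hochberg adjustment over all genes tested. Calls needed an adjusted p below 0.05 together with a log2 fold change beyond 1 in size. SE was obtained by dividing the log2 fold change by the root of its F statistic. The difference between changes was fitted over all 12 libraries. CPM used TMM factors over the 12 libraries, and lengths were merged exons of the GENCODE mouse annotation. Alternatives were DESeq2 1.42.0, other scalings and filters, a replicate block and leaving out each library. The fit was tested on simulated data. Tables were handled in Python 3.11.15 with pandas 2.3.3 and drawn with matplotlib 3.10.9.

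Members given with all values were, in each direction of each change over time, the called ones among the 8 largest with at least 5 CPM in the higher group, the called ones between groups of like content, and the ligand and receptor of each system highest per kilobase. The members and lists were chosen with earlier results of these data known.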

Additional observations from a re-analysis of the deposited data

Results flagged for a closer look

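The change from the earlier to the later day differed between the bone label and the cortex label for 18 of the members described in full, by edgeR's quasi-likelihood test of that difference itself over the 12 libraries. Most of these members were chosen for large changes over time, and 73.6% of all genes were called in the same contrast, so the count is a description. As the log2 change of BS6 over BS2 minus that of SB4 over SB2, it was -14.79 for Fgf12, -8.38 for Fgf13, -8.29 for Fgf9, -3.76 for Fgf14 and -3.49 for Fgf1. It was 14.19 for Pdgfrl, 9.81 for Igfbp5, 8.49 for Pdgfd, 8.46 for Igfbp3, 8.02 for Igfbp7, 7.88 for Igfbp4 and 7.76 for Fgf7. For the receptors and Igf1 it was 7.23 for Pdgfrb, 7.04 for Flt4, 6.62 for Fgfr1, 6.07 for Igf1, 5.03 for Kdr and 3.47 for Igf2r. Tissue content by the markers runs with this contrast and cannot be told apart from it.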

How the results depend on the processing

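Over 1054 refits of 73 called fold changes of the members described in full, 1048 kept their direction and their side of the threshold and 0 reversed. The other 6 were Fgf14 in BS6 against SB2, whose adjusted p rose above 0.05 in 5 of 6 fits that left out 1 library (0.0751 to 0.182) and with the replicate block (1.27, adjusted p = 0.105), with a log2 fold change of 1.11 to 1.48. Few or no genes of the whole table passed in those fits. The number of members called in BS6 against SB2 was 1, and became 2 with DESeq2 (Fgf14 and Igf1), 0 with the replicate block, 0 to 2 when each library was left out and 2 on adjusted p alone. Of all 16329 genes tested, DESeq2 called 750 higher and 305 lower, and the replicate block called 0. Counted on adjusted p alone, 6 members passed with DESeq2, beside 1542 genes higher and 1486 lower. With the replicate block 0 members and 0 genes passed. These counts are therefore no result about the members. Igf1, not called over all 6 libraries, was called there by DESeq2 (adjusted p = 0.00362) and without BS6 replicate 2 (adjusted p = 0.00139). In SB4 against BS2 the number of members went from 0 called to 2 on adjusted p alone, and to 3 on adjusted p with DESeq2, where Igfbp4 also passed (0.33, adjusted p = 0.0335). DESeq2 passed 165 genes higher and 89 lower of 16278 there. The number of members called in SB4 against SB2 ran from 24 to 31, in BS6 against BS2 from 27 to 31, in BS6 against SB4 from 26 to 32 and for the difference between changes from 30 to 36. Libraries with the same replicate number did not deviate together (correlations of -0.13 to 0.093 over genes), so the replicate block pairs them by number only. Upper-quartile scaling moved the median of all genes most for the difference between changes, from 0.03 to 0.20 (log2). With the longest transcript as length, 20 family shares moved by over 1 SD. Fgf5, Fgf22 and Fgfr4, at 3 counts or fewer per library in a group compared, are given as levels with no fold, and the folds of Fgf10 (3 to 6 counts in SB2) and Pdgfrl (4 to 11 counts in SB4) rest on few counts.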
